A study of Bos taurus with 10 samples.

Results

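The factors that start and carry protein synthesis were examined in bovine embryos collected 7 days after insemination. Every array probe named for an initiation factor of the EIF1 to EIF6 families or for an elongation factor of the EEF1 and EEF2 families was taken, and the EIF2AK kinases were left out. This gave 165 probes under 59 gene names, of 43653 probes under 25325 names on the array. The rule uses gene names and no measured value. For each gene the probe with the highest mean signal over the arrays was used, and its other probes were checked beside it. Of the 59 genes, 32 were detected on all 10 arrays and 13 on none, and 33.3% of the factor probes were detected on all 10 arrays, against 5.71% of all probes. No factor differed between the senktide and vehicle groups, or between the senktide doses, past the test threshold.

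Translation of most messengers begins at the cap. The protein eIF4E binds the cap, the scaffold eIF4G holds it to the helicase eIF4A, and eIF4B and eIF4H assist the helicase as it unwinds the leader. The many-subunit factor eIF3 joins the messenger to the small ribosomal subunit. There eIF2 has placed the initiator tRNA, and eIF1, eIF1A and eIF5 govern the choice of the start codon. The exchange factor eIF2B recharges eIF2 with GTP, and its block by phosphorylated eIF2 is the switch of the integrated stress response. Joining of the large subunit is promoted by eIF5B and held off by eIF6. During elongation eEF1A brings charged tRNAs, the eEF1B subunits recharge eEF1A, eEF2 moves the ribosome along and eIF5A relieves stalls. In cattle the embryo takes over transcription from the egg several cleavages after fertilization, so by the blastocyst stage these messengers come largely from its own genome.

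The embryos had been flushed from superovulated cows. The cows carried no genetic change stated in the labels and received an intravenous infusion 48 h after superovulation began. Senktide, a peptide that activates the neurokinin-3 receptor, was infused for 2 h at 300 nmol/min (4 arrays, called senktide 300 here) or at 30 nmol/min (4 arrays, senktide 30), and the vehicle group (2 arrays) is labelled DMSO. All cows were inseminated 108 and 120 h after superovulation began. The labels do not say whether samples came from separate cows, nor how many embryos each held, so the tests speak of the scatter among these arrays alone, and that scatter could be technical. With whole embryos, fewer cells of a type and less RNA per cell cannot be told apart.

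The arrays differed in brightness along with the groups. Between 10.47% and 19.6% of spots lay well above background in senktide 300, 8.77% to 19.6% in senktide 30, and 7.17% and 9.44% in vehicle. The 4 brightest arrays were replicates 3 and 4 of both senktide groups, which shared slide 3, a slide without a vehicle array. On slides 1 and 2 all 3 groups were present with 1 array each. Of the 8 trophectoderm markers, 6, among them KRT8 and KRT18, were well above background on all 10 arrays, and CDX2 was on none. The inner cell mass marker SOX2 was on 10 arrays, POU5F1 on 4 and NANOG on none. Of 13 markers of uterine or oviduct epithelium, stroma, blood and leukocytes, 12 had a probe, only the lysozyme gene LYZ was on all 10 arrays, and OVGP1, PAEP, COL1A1, COL3A1, HBB and S100A8 were on none. CLU was on 7 arrays, PTPRC on 5, HBA and ITGB2 on 4 each and COL1A2 on 3, all of them senktide arrays. The summed leukocyte level, relative to the array scale, was 0.292 to 0.423 in senktide 300, 0.240 to 0.370 in senktide 30 and 0.379 to 0.389 in vehicle. The summed uterine and oviduct level was 0.0436 to 0.240, 0.0676 to 0.255 and 0.113 to 0.310 in the same groups. Stroma came to 0.0463 to 0.199, 0.0358 to 0.280 and 0.225 to 0.399. Blood came to 0.0559 to 0.0880, 0.0845 to 0.190 and 0.119 to 0.143. All sums include markers below background. No uterine, oviduct, stroma or blood marker was above background in vehicle, so those vehicle sums are no measured level. The part of brightness and other cells in the values below was not tested. For slide, fits with slide as a block and with slides 1 and 2 alone are given at the end.

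Each probe is an oligonucleotide of 60 bases, and its position is given as in the files on build Btau_3.1, which name no exon or untranslated region. Several factors are measured by probes that overlap each other or align with the probe of a related gene, and some of these are printed 5′ to 3′. How far a differing base changes what a probe binds was not tested. The EEF1A1 probes at chr9:12615581-12615718 and chr9:12615559-12615696, on the minus strand, share 38 bases and each cover 138 bases of the genome, more than the probe's length. Capitals mark the bases at which they differ, G31A and G34A, positions counted from the 5′ end of A_73_P092186. Each was well above background on 6 arrays.
EEF1A1 A_73_P092186: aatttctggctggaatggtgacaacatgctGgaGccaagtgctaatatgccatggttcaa
EEF1A1 A_73_P107176: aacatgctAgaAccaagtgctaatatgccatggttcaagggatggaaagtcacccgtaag
A further EEF1A1 pair, at chr9:12614801-12614860 and chr9:12614826-12614885 on the minus strand, shares 35 bases with 2 differences in capitals (T19C and A29G, counted in A_73_P061986), and both were detected on all 10 arrays.
EEF1A1 A_73_P061986: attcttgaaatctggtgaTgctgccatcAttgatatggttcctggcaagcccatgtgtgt
EEF1A1 A_73_P100161: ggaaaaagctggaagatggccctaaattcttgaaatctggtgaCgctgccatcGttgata
The probe of EIF1AX at chrX:75388212-75388271, on the plus strand, and that of its Y-linked relative EIF1AY align over 59 bases with 12 differences, in capitals. The EIF1AX probe was detected on 10 arrays and the EIF1AY probe on none.
EIF1AX A_73_P281596: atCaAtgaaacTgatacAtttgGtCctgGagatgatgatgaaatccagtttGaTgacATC
EIF1AY A_73_P032906: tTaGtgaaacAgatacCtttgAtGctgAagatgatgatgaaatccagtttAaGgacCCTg
For EIF4A2, whose values stood out between the doses, 2 probes at chr1:82284867-82284926 and chr1:82284869-82284928 on the minus strand overlap by 58 bases and differ at 3 of them (G5A, G25T and C41T, counted in A_73_P278216). The stretch of 30 bases that holds G5A and G25T is shown with these in capitals. The probe with G at both places was detected on 10 arrays and the other on 4.
EIF4A2 A_73_P278216: agtcGtgagctcttgtgaggaaagGcattg
EIF4A2 A_73_P494633: agtcAtgagctcttgtgaggaaagTcattg
EIF3E, whose values stood out against vehicle, was read at 2 places on the plus strand of chromosome 14. The brightest probe lies at chr14:54102111-54102170, of which 38 bases are shown, and the other at chr14:54086037-54086096, 16074 bases upstream.
EIF3E A_73_103481: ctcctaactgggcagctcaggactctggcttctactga
EIF3E A_73_P331956: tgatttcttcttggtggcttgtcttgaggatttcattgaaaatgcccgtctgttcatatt

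Detection differed between the roles. Of the 13 eIF3 genes, 10 were well above background on all 10 arrays, as were 7 of 12 cap and helicase genes. So were 6 of 9 elongation genes, 3 of 5 genes of start codon selection, and both subunit joining genes, EIF5B and EIF6. The group of eIF2, its exchange factor and EIF2A had 3 of 10 genes on all 10 arrays. A further 13 genes were detected on 2 to 9 arrays, and EEF1E1, an aminoacyl-tRNA synthetase complex protein, on 1. The 13 genes detected on none by the brightest probe were mostly relatives of a detected factor. They were EEF1A2, EIF5A2, EIF1AY, EIF2S3Y, EIF4E1B, EIF4E3, EIF4G3, EIF4ENIF1, which carries eIF4E into the nucleus, EEF2K, the kinase of eEF2, the eIF3 subunit EIF3J, and EIF2C2, EIF2C3 and EIF2C4. The EIF2C names are older names of Argonaute proteins, which bind small RNAs and are no initiation factors. RefSeq gives AGO2 for EIF2C2 and AGO3 for EIF2C3. EIF3J had another probe that was well above background on 2 arrays.

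By group, 38 of the 59 genes were detected on every array of senktide 300, 37 on every array of senktide 30 and 34 on both vehicle arrays. For all probes the same shares were 9.50%, 7.73% and 6.18%, and for the factor probes 41.2%, 38.2% and 34.5%. The number of factor genes detected per array was 40, 41, 45 and 45 in senktide 300, 42, 37, 44 and 46 in senktide 30, and 35 and 39 in vehicle. The 4 arrays of slide 3 had the highest counts, 44 to 46. Genes detected on no vehicle array but on at least 2 senktide arrays were EIF1B, EIF2A, EIF2B1, EIF2B4 and EIF2C1. No fold against vehicle is given for them, since the bound set by the vehicle arrays' background came to under 1. Lack of detection in vehicle was common among all probes. Of 8938 probes detected on at least 2 arrays, 4230 were above background in both senktide 300 and vehicle, and 4200 in both senktide 30 and vehicle. For the brightest factor probes it was 40 of 45 in each case.

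**Figure D1:**
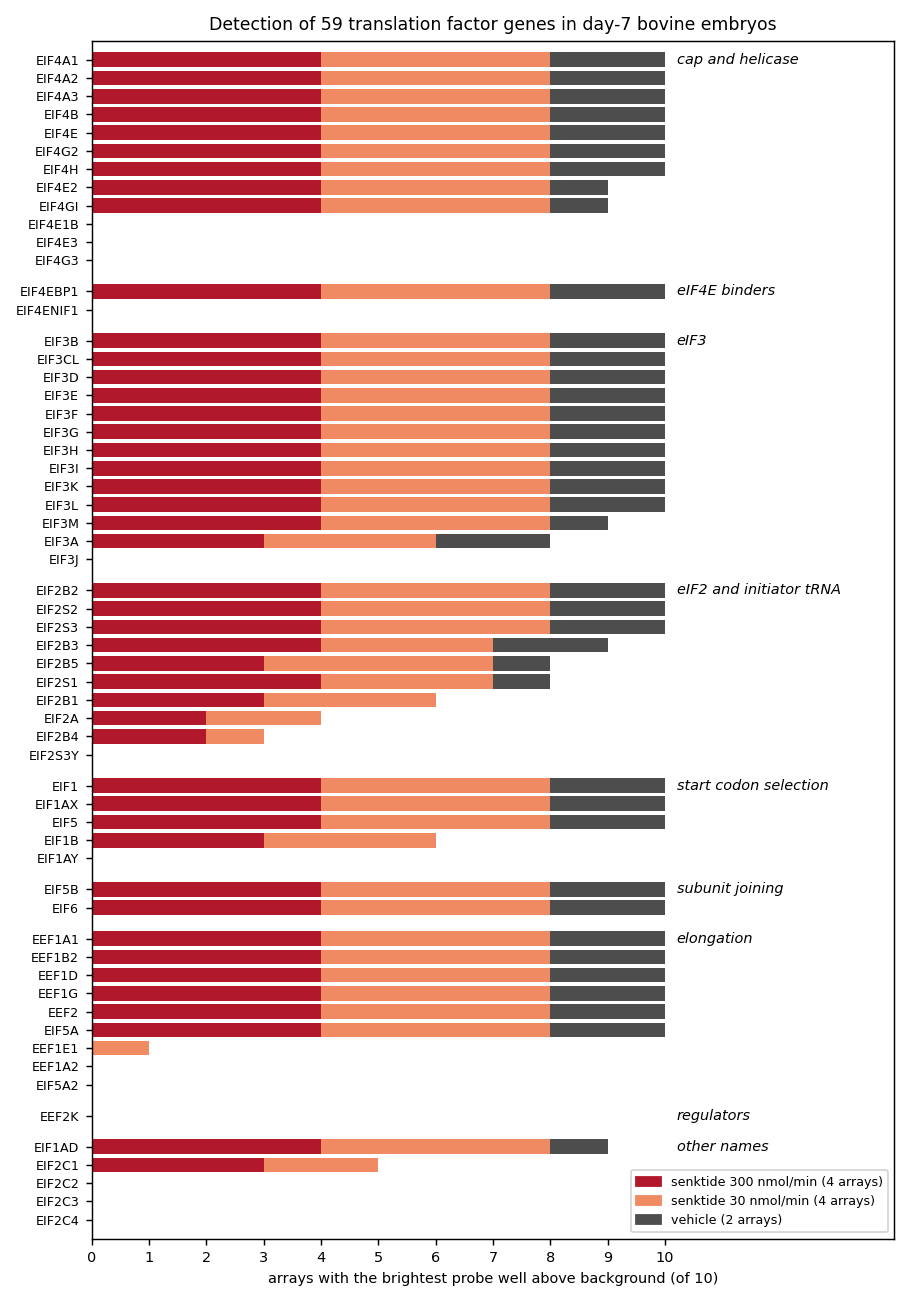
Horizontal bars give, for each of the 59 genes (vertical axis, grouped by role), the number of arrays on which the brightest probe lay well above background, split into senktide 300, senktide 30 and vehicle. Full bars of 10 arrays fill most of the eIF3 and elongation groups, while 13 genes have no bar.

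Detection of the factor probes varied with their position in the gene. Among 46 factor genes with at least 2 mapped probes on a strand, 52.2% of the probes nearest the 3′ end of the gene were on all 10 arrays. The share was 54.3% for the 35 probes lying 1 to 1000 bases upstream of that last probe, 23.5% for the 34 probes 1001 to 5000 bases upstream, and 0% for the 29 probes over 5000 bases upstream. In 9922 other genes the shares were 10.1%, 9.48%, 2.56% and 0.867%. Distances are genomic and include introns. In 36 factor genes the probes differed in detection, and in 29 of these (80.6%) no other probe was on more arrays than the last probe. The share in other genes was 71%. The remaining factor genes went the other way. The last EIF5 probe was on 4 arrays and a probe 4663 bases upstream on 10. EIF4A1 is an example of a gene with the pattern. Its probe at chr19:27814855-27814914 was on all 10 arrays, while a probe at chr19:27813092-27813313, which covers 222 bases of the genome and lies upstream, was on 2 senktide 300, 2 senktide 30 and no vehicle arrays.
EIF4A1 A_73_P253726: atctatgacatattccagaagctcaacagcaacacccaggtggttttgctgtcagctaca

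**Figure D2:**
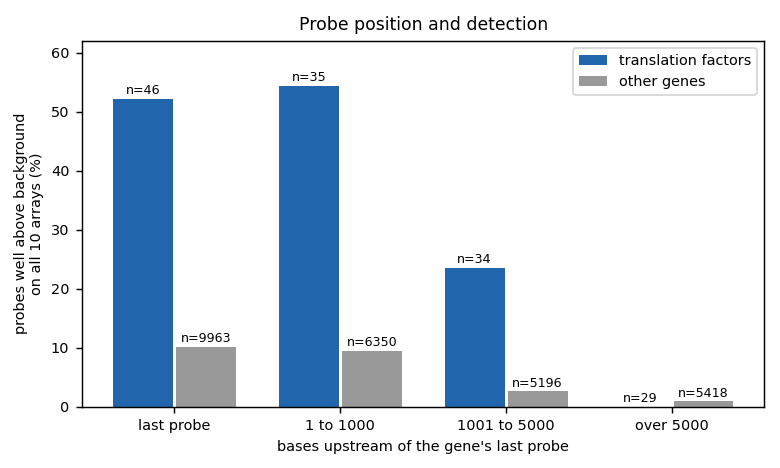
Bars give the percentage of probes well above background on all 10 arrays (vertical axis) by the distance in bases from the last probe of the gene (horizontal axis), for the translation factors and for other genes, with the number of probes above each bar. The factor bars stand at 52.2%, 54.3%, 23.5% and 0%.

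The comparisons asked whether the infusions left a mark on these transcripts. Of the 59 genes, 45 were tested, their brightest probe being well above background on 2 arrays or more. Levels are log2 signals relative to the array's 75th percentile of the probes detected on all arrays, so 0 is that percentile. Under limma with Benjamini-Hochberg adjustment over all 8938 tested probes, 0 of 45 factors passed an adjusted p of 0.05 in senktide 300 against vehicle, where 0.0112% of all probes did. In senktide 30 against vehicle, and in senktide 300 against senktide 30, 0 factors and 0% of all probes passed. By the brightest probes, the smallest adjusted p of a factor was 0.273, 0.370 and 0.999 in the 3 comparisons. Standard errors of the factors' differences had medians of 0.225 against vehicle and 0.184 between doses on the log2 scale. The comparisons with vehicle share the same vehicle arrays, so their values are not independent of each other.

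Counts by direction were made over probes well above background on at least 1 array of each group compared, since a probe below background in vehicle has no measured difference from it. This left 40 factors in each comparison with vehicle and all 45 between doses. At an unadjusted p of 0.05, 2 factors were higher and 2 lower in senktide 300 than in vehicle, where 3.90% of all such probes were higher and 8.53% lower. In senktide 30 against vehicle the counts were again 2 higher and 2 lower, where 3.21% and 6.60% of such probes were. Between doses 1 factor was higher and 0 were lower, where 1.51% and 1.19% of such probes were. Groups that did not overlap were seen for 6 higher and 6 lower factors in senktide 300 against vehicle (8.53% and 18.6% of such probes), for 6 and 3 in senktide 30 against vehicle (7.12% and 13.5%), and for 2 and 0 between doses (1.49% and 1.09%). The median difference over the factors was -0.0033, 0.0052 and -0.044, and over such probes -0.08, -0.08 and -0.01. Signs against vehicle depend on the scaling. When the 75th percentile was taken over all probes instead, all 45 tested factors were higher in both senktide groups, by a median of 1.14 in senktide 300 and 1.04 in senktide 30, as were 92.2% and 91.9% of all tested probes, whose medians were 1.06 and 0.95.

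**Figure D3:**
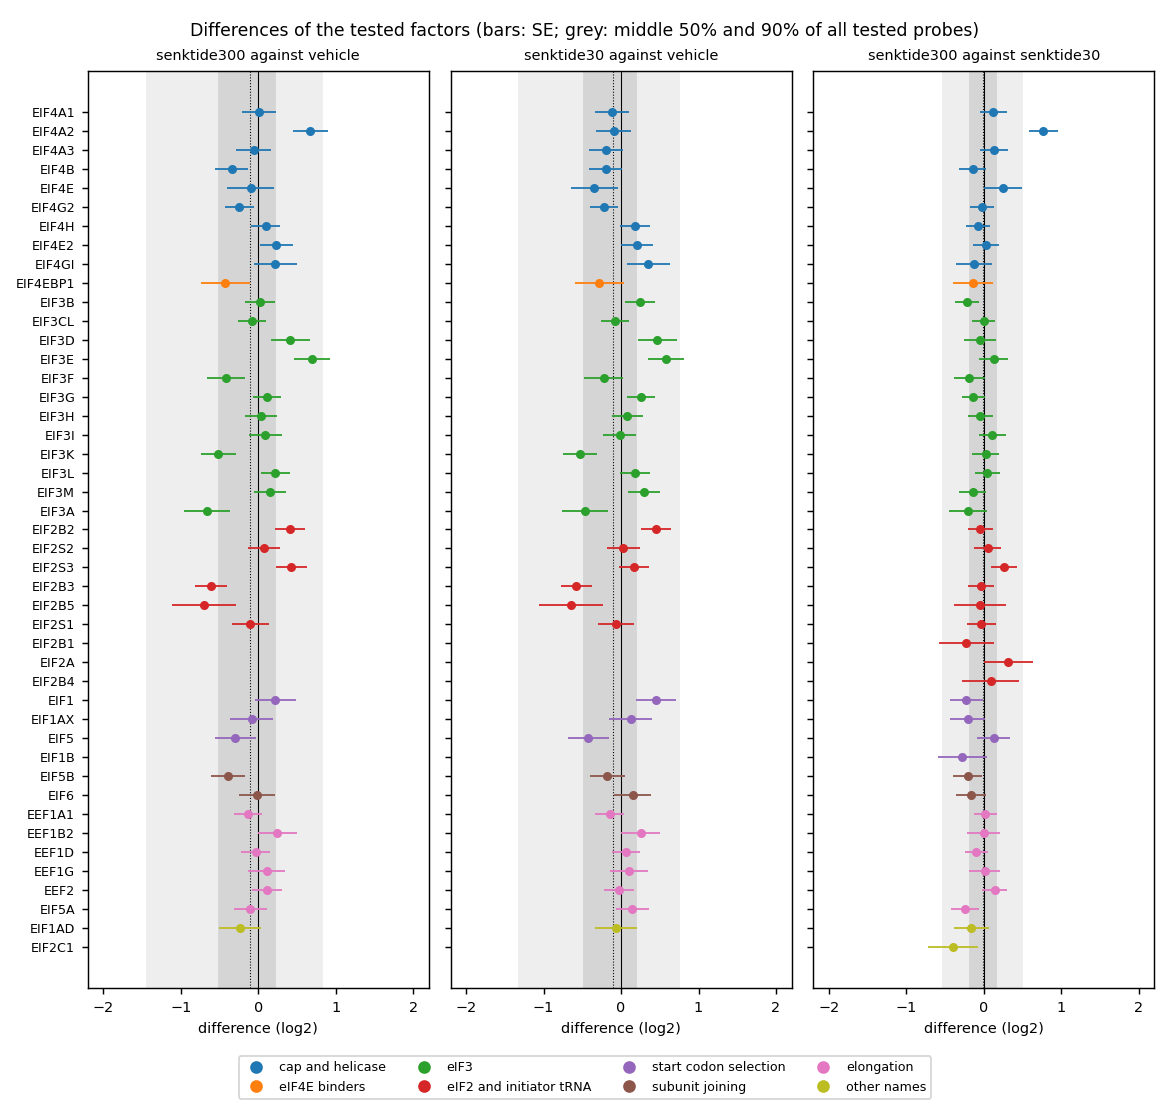
Points give the log2 difference of each tested factor (vertical axis) in the 3 comparisons, coloured by role, with bars of 1 SE. The 5 factors detected on no vehicle array have a point between doses alone. Grey bands hold the middle 50% and 90% of all 8938 tested probes, and the dotted line is their median. EIF4A2, at 0.77 between doses, is the one factor outside the 90% band of that panel.

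Among the cap-binding and helicase genes, 5 of 9 tested were higher and 4 lower in senktide 300 than in vehicle, with a median of 0.01. EIF4A2, a paralogue of the main helicase EIF4A1, had levels of 0.39, 0.53, 0.01 and 0.25 in senktide 300, -0.45, -0.59, -0.62 and -0.23 in senktide 30, and -0.59 and -0.17 in vehicle. Every senktide 300 array lay above every array of the other groups. The difference was 0.77 (SE 0.18) between doses, 1.70-fold, with an unadjusted p of 0.0021 that ranked 7 of 8938 probes and an adjusted p of 0.999. Against vehicle it was 0.67 (SE 0.23) in senktide 300, adjusted p = 0.273. Within slides the difference between doses was 0.84, 1.12 and 0.56.

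On average A_73_P265546, A_73_P278216 and A_73_P494633, the remaining tested EIF4A2 probes, were also higher in senktide 300 than in senktide 30. The differences were 0.72, 0.56 and 0.99, with adjusted p = 0.999 each. The doses overlapped for A_73_P278216 and A_73_P494633. On replicates 3 and 4 A_73_P278216 stood at -2.76 and -2.12 in senktide 300, against -2.35 and -2.33 in senktide 30. All 3 probes overlap in a chain on the genome and read the same samples. Against vehicle those measured in both groups differed in sign. A_73_P265546 differed by 0.45 and A_73_P278216 by -0.08 in senktide 300, adjusted p = 0.462 and 0.953. The probe A_73_P494633 was detected on 2 arrays of each senktide group and on no vehicle array, so it has no measured difference from vehicle.

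**Figure D4:**
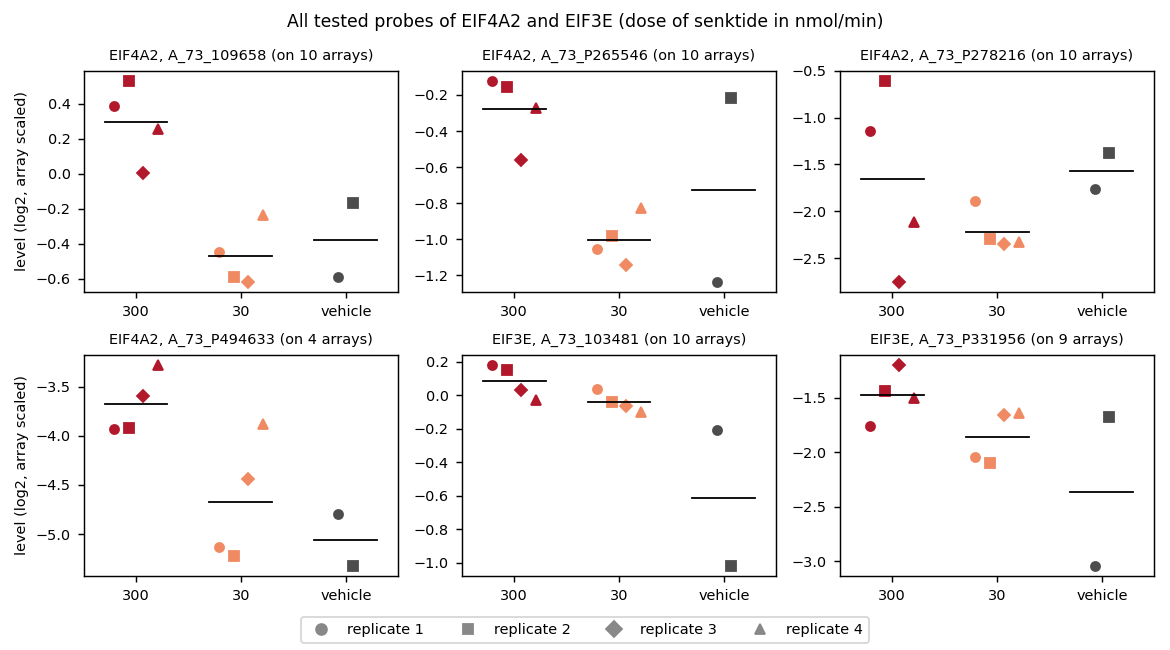
Each panel gives the log2 level (vertical axis) of 1 tested probe of EIF4A2 or EIF3E on every array of senktide 300, senktide 30 and vehicle, with symbols for replicates and a line at the group mean. In the panel of A_73_109658 all senktide 300 arrays lie above all others, while in the panel of A_73_P278216 senktide 300 spreads from -2.76 to -0.61.

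EIF4A1 itself stood at 1.48, 1.497, 1.41 and 1.30 in senktide 300, 1.57, 1.43, 1.32 and 0.89 in senktide 30, and 1.39 and 1.44 in vehicle, with all groups overlapping. The upstream EIF4A1 probe A_73_P253726, printed above, had lower levels on all 8 senktide arrays than on both vehicle arrays, at -5.14 to -4.71 in senktide 300, -5.31 to -5.08 in senktide 30, and -3.96 and -4.26 in vehicle. Its adjusted p of 0.181 and 0.185 were below those of every brightest probe, but it was above background on no vehicle array, so no fold is given. EIF4G2, an eIF4G relative that works without eIF4E, averaged 0.74 ± 0.14 (SD, n = 4) in senktide 300, 0.77 ± 0.14 (n = 4) in senktide 30 and 0.99 ± 0.10 (n = 2) in vehicle. Its senktide 300 arrays all lay below the vehicle arrays, with a difference of -0.25 (adjusted p = 0.529). EIF4E differed by 0.25 (SE 0.25) between doses, adjusted p = 0.999, and senktide 30 replicate 2, at -2.59, lay below every other array. Without that array the difference was 0.034. Of the eIF4E binders, EIF4EBP1, the repressor that mTOR signalling releases from eIF4E, was detected on all 10 arrays. It averaged -2.88 ± 0.38 in senktide 300, -2.73 ± 0.31 in senktide 30 and -2.45 ± 0.49 in vehicle, within the spread of its groups.

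In eIF3, 8 of 12 tested subunits were higher and 4 lower in senktide 300 than in vehicle (median 0.06), and 7 were higher and 5 lower in senktide 30 (median 0.13). EIF3E, a subunit at the edge of the complex, had levels of 0.18, 0.15, 0.03 and -0.03 in senktide 300, 0.04, -0.04, -0.07 and -0.10 in senktide 30, and -0.21 and -1.02 in vehicle. Both vehicle arrays lay below all senktide arrays, and they were farther from each other than the senktide arrays were. The difference was 0.70 (SE 0.23) in senktide 300 and 0.57 (SE 0.23) in senktide 30, 1.62-fold and 1.49-fold, with adjusted p = 0.273 and 0.416. Within slides 1 and 2 it was 0.39 and 1.17 in senktide 300, and 0.25 and 0.98 in senktide 30. Without vehicle replicate 2 it was 0.29 and 0.17 in the same groups, and without vehicle replicate 1 it was 1.11 and 0.98. The upstream EIF3E probe differed by 0.89 in senktide 300 and 0.50 in senktide 30, adjusted p = 0.322 and 0.563, with overlapping groups.

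EIF3K, a small subunit that binds next to EIF3L, gave 0.02, 0.06, -0.22 and -0.25 in senktide 300, 0.26, -0.21, -0.27 and -0.26 in senktide 30, and 0.30 and 0.53 in vehicle. The vehicle arrays were the highest, though the difference between senktide 30 and vehicle on slide 1 was -0.04, against -0.74 on slide 2. The differences were -0.51 and -0.53 (SE 0.22 each), adjusted p = 0.351 and 0.423. A probe of EIF3K that shares 57 bases with it differed by -0.21 and -0.27, adjusted p = 0.663 and 0.622, with overlapping groups.

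EIF3A, the largest subunit and a scaffold of the complex, stood at -3.92, -3.04, -3.07 and -2.92 in senktide 300, -3.12, -2.95, -2.94 and -3.13 in senktide 30, and -2.31 and -2.84 in vehicle. Detection held on 3 arrays in each senktide group and on both vehicle arrays. The difference was -0.66 (SE 0.30) in senktide 300, adjusted p = 0.363, and the within-slide values were -1.61 and -0.20. Leaving out 1 array at a time gave -0.93 to -0.40. EIF3D, which can itself bind the cap, was 0.47 (SE 0.25) higher in senktide 30 than in vehicle, adjusted p = 0.489, with levels of 0.90, 1.43, 0.75 and 0.78 in senktide 30, against 0.31 and 0.69 in vehicle. That difference was 0.28 without vehicle replicate 1, 0.66 without vehicle replicate 2 and 0.31 without senktide 30 replicate 2. EIF3B, which holds the core of the complex together, averaged 1.22 ± 0.18 in senktide 300, 1.44 ± 0.14 in senktide 30 and 1.20 ± 0.02 in vehicle, and differed by -0.22 (SE 0.16) between doses, adjusted p = 0.999, and by -0.13 without senktide 300 replicate 3. EIF3CL, the files' name for a copy of the eIF3c gene, ranged from 0.89 to 1.08 in senktide 300, 0.88 to 1.06 in senktide 30 and 0.87 to 1.18 in vehicle.

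For eIF2, its exchange factor and EIF2A, 6 of the 9 tested genes were above background in vehicle. In both senktide groups 3 of these were higher and 3 lower than in vehicle. EIF2S3, the GTP-binding gamma subunit, had levels of -0.63, -0.48, -0.54 and -0.69 in senktide 300, -0.72, -0.76, -1.19 and -0.72 in senktide 30, and -1.004 and -1.022 in vehicle. Senktide 300 lay above both other groups without overlap. Its difference was 0.43 (SE 0.20) against vehicle and 0.26 (SE 0.16) between doses, adjusted p = 0.374 and 0.999, and the difference between doses was 0.14 without senktide 30 replicate 3. EIF2S2, the beta subunit, ranged from 1.03 to 1.30 in senktide 300, 0.92 to 1.27 in senktide 30 and 0.82 to 1.35 in vehicle, with full overlap.

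The subunits of the exchange factor eIF2B did not share a direction. EIF2B3, part of its catalytic core, stood at -2.98, -2.70, -3.05 and -2.95 in senktide 300, -3.18, -2.87, -2.78 and -2.71 in senktide 30, and -2.23 and -2.39 in vehicle. Both vehicle arrays exceeded all 8 senktide arrays. The differences were -0.61 and -0.58 (SE 0.21 each), 1.53-fold and 1.49-fold lower, with adjusted p = 0.273 and 0.370. EIF2B2, a regulatory subunit, was instead 0.45 (SE 0.20) higher in senktide 30 than in vehicle, adjusted p = 0.431, with -1.52, -1.25, -1.55 and -1.39 in senktide 30, against -2.099 and -1.66 in vehicle. That difference was 0.23 without vehicle replicate 1 and 0.67 without vehicle replicate 2. EIF2B5, the catalytic subunit, differed by -0.70 in senktide 300 and -0.65 in senktide 30 with an SE of 0.41, adjusted p = 0.443 and 0.529. It was above background on only 1 vehicle array, and its groups overlapped. Within slides 1 and 2 it differed by -1.16 and -0.64 in senktide 300, and by -0.84 and 0.43 in senktide 30.

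In start codon selection, EIF5, which triggers GTP hydrolysis by eIF2 at the start codon, had levels of 0.46, 0.35, 0.56 and 0.39 in senktide 30, against 0.49 and 1.23 in vehicle. The difference was -0.42 (SE 0.26), adjusted p = 0.522, and the vehicle arrays lay farther apart than the senktide 30 arrays. It was -0.79 without vehicle replicate 1 and -0.053 without vehicle replicate 2. EIF1 averaged 0.64 ± 0.12 in senktide 300, 0.87 ± 0.32 in senktide 30 and 0.42 ± 0.46 in vehicle. EIF1AX averaged 1.25 ± 0.21, 1.45 ± 0.36 and 1.33 ± 0.38 in the same groups. By these brightest probes neither gene's groups separated in any comparison. Another EIF1 probe, A_73_P383991, detected on all 10 arrays, had levels of -0.69, -0.60, -0.28 and -0.47 in senktide 30, against -0.79 and -0.99 in vehicle. Its senktide 30 arrays all lay above the vehicle arrays, with a difference of 0.38 (SE 0.21), adjusted p = 0.494. For subunit joining, EIF5B averaged -1.77 ± 0.15, -1.56 ± 0.24 and -1.38 ± 0.30, and EIF6 -0.47 ± 0.24, -0.30 ± 0.07 and -0.45 ± 0.44, again with overlap.

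The elongation genes showed small differences. EEF1A1, the carrier of charged tRNAs, stood at 4.01, 4.01, 3.96 and 3.98 in senktide 300, 4.06, 3.71, 4.07 and 4.04 in senktide 30, and 4.01 and 4.23 in vehicle. EEF2, the translocase, ranged from 2.45 to 2.80, 2.36 to 2.71 and 2.48 to 2.66 in the same groups. The groups overlapped for both genes. The 6 tested elongation genes differed by -0.13 to 0.25 in senktide 300 against vehicle, by -0.15 to 0.25 in senktide 30 against vehicle and by -0.24 to 0.14 between doses. The lowest of these between doses was EIF5A, with 1.83, 1.79, 1.52 and 1.71 in senktide 300, against 1.98, 1.83, 2.01 and 2.02 in senktide 30, a difference of -0.24 (SE 0.18), adjusted p = 0.999. EEF1A1 has 9 probes, 6 of them on all 10 arrays. The probe whose levels are given, A_73_P041941, aligns over 56 bases with an unnamed probe from which it differs at 16. A_73_P061986 aligns over 57 bases with a LOC100139419 probe, with 5 mismatches, and A_73_P100161 over 36 bases with a further transcript's probe, with 6, and how far such sequences bind each other's probes was not tested.

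Of the names that are no initiation factors proper, EIF2C1, an Argonaute gene that RefSeq calls AGO1, was on 3 senktide 300, 2 senktide 30 and no vehicle arrays. It averaged -3.94 ± 0.53 in senktide 300 and -3.54 ± 0.54 in senktide 30, a difference of -0.40 (SE 0.33), adjusted p = 0.999, which ranged from -0.65 to -0.24 when each array was left out in turn. EIF1AD, named for an eIF1A-like domain, was on 9 arrays and averaged -2.37 ± 0.40, -2.21 ± 0.21 and -2.14 ± 0.04 in senktide 300, senktide 30 and vehicle.

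**Figure D5:**
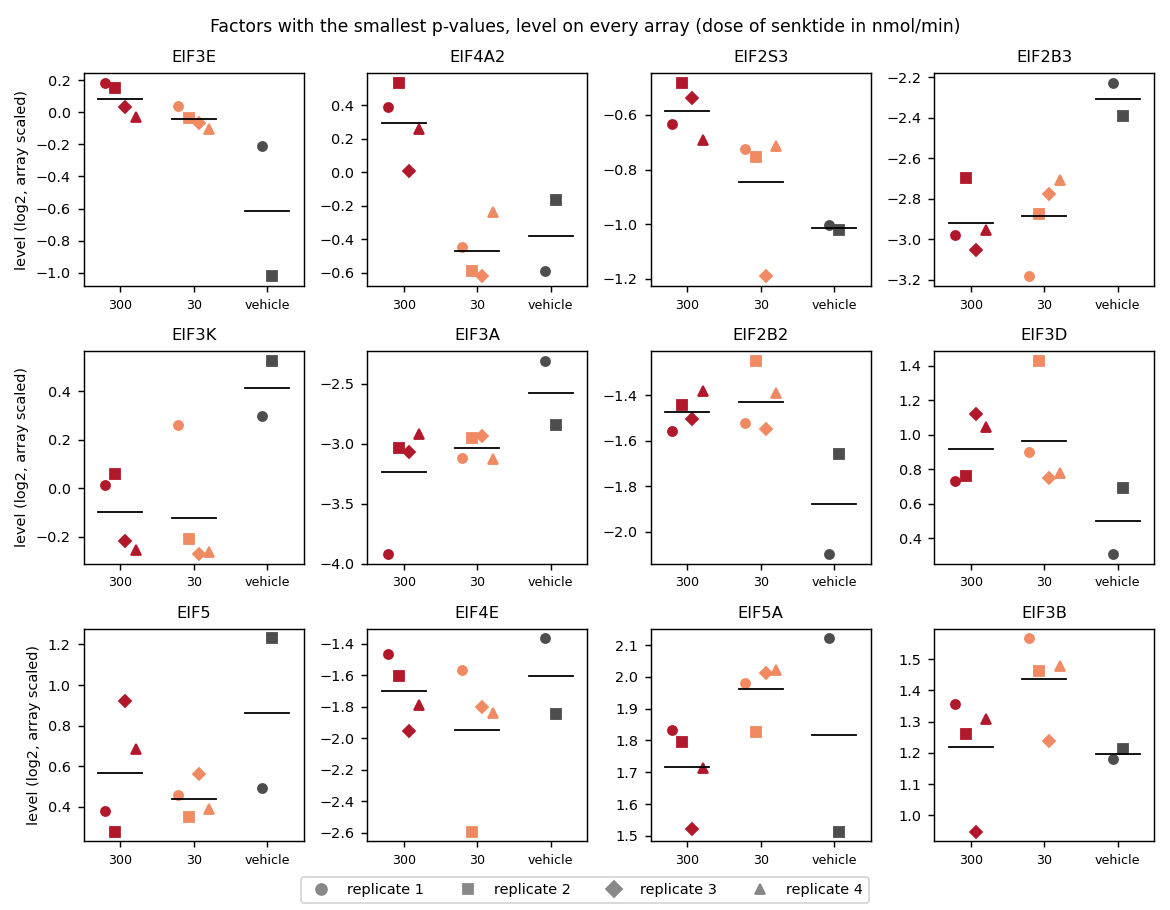
Each panel gives the log2 level (vertical axis) of 1 of 12 factors on every array of senktide 300, senktide 30 and vehicle, with symbols for replicates and a line at the group mean. EIF4A2 is highest in senktide 300, EIF2B3 and EIF3K are highest in vehicle, and EIF3E is lowest there.

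Other probes of the same genes were a check on direction. Of 32 further probes in 21 genes that were above background in both groups, 11 went against the gene's brightest probe in senktide 300 against vehicle and 11 in senktide 30 against vehicle. Between doses 15 of 48 did. In senktide 300 against vehicle those probes belonged to EEF1A1, EEF2, EIF1, EIF3B, EIF3H and EIF4A2. The EIF3B probe A_73_P041636, detected on 5 arrays, differed by -0.83 (SE 0.37) there, adjusted p = 0.362, with all senktide 300 arrays below both vehicle arrays.

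The genes around the factors were read from a list of 49, of which 44 had a probe and 28 were tested. They include the eIF2 kinases, the mTOR branch, poly(A)-binding proteins, termination and recycling factors and mitochondrial factors. None passed the threshold in any of the 3 comparisons. Of the 15 above background in both groups, 2 were higher and 13 lower in senktide 300 than in vehicle, where 41.7% of all such probes were higher. In senktide 30 against vehicle 5 were higher and 10 lower, where 40.0% of such probes were higher, and between doses, over 27 genes, 13 and 14, where 48.1% were higher. ATF4, the transcription factor translated when eIF2 is phosphorylated, was detected on all 10 arrays and differed by -0.10, -0.07 and -0.03 in the 3 comparisons. DDIT3, a target of ATF4, was on 6 arrays and differed by -0.30 (SE 0.43) in senktide 300 against vehicle, -1.52 (SE 0.43) in senktide 30 against vehicle and 1.22 (SE 0.36) between doses, adjusted p = 0.759, 0.301 and 0.999.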

How the data were processed

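Embryo RNA from 10 samples was Cy3-labelled and run on 1-colour Agilent bovine arrays, a sample to an array, per the labels. Their extraction protocol mentions endometrial tissue, but title, source and tissue fields say embryos. The deposited files give spot intensity: background-subtracted, detrended processed signals, surrogates replacing low values, not scaled between arrays. Feature Extraction is 11.5.1.1 in the headers and 10.5.1.1 per the submitters' processing notes. Deposited flags, coded 0 or 1, mark spots well above background, outlier spots, which were dropped, and saturated spots, of which there were 0. The authors' series matrix holds log2 values of unstated scale and centring. At least 99.977% of them lay within 0.01 of log2 processed signal less the array's 75th percentile (all probes) and less the probe median, which settles the direction. Medians of its columns were 0.16, -0.18, -0.28 and -0.23 in senktide 300, 0.04, 0.07, -0.13 and -0.31 in senktide 30, and 0.22 and 0.12 in vehicle.

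Here log2 processed signal, averaged over spots, was set relative to each array's 75th percentile of the 2491 probes detected on every array. The 8938 probes well above background on 2 or more arrays entered limma 3.58.1 (R 4.3.3; lmFit, eBayes, 1 coefficient per group, all 10 arrays), with Benjamini-Hochberg adjustment and 0.05 as the threshold. The fit was tested on simulated data. The number of arrays limits the precision. Groups and replicate numbers came from sample titles. Deviations from group means correlated at r = 0.487, 0.495, 0.565 and 0.575 in the 4 same-numbered senktide pairs, which share slides. The number was used as a block in an alternative fit. Pairs of different number correlated nearly as well among replicates 1 and 2 (0.413 and 0.417) and among replicates 3 and 4 (0.492 and 0.545). Senktide pairs of replicate 1 or 2 with replicate 3 or 4 correlated at -0.531 to -0.472. The correlations thus do not single out the number. Same-numbered pairs with vehicle correlated at 0.124 and 0.179 (replicate 1) and -0.188 and -0.198 (replicate 2). Deviations of the 2 vehicle arrays mirror each other, so each senktide array correlates with them at nearly equal size and opposite sign. These values therefore cannot show whether the numbers pair vehicle with senktide samples. The members and lists were chosen with earlier results of these data known.

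Names are those of the files, checked against RefSeq (ARS-UCD2.0, names only), which matched 119 factor probes by accession, 34 by symbol and 4 by synonym; 8 had no match. Statistics are given for factors past the threshold, for the 3 with the smallest p in each direction per comparison, and for the 2 tested factors per role detected on most arrays. EIF2B5, ATF4, DDIT3 and the further probes described were singled out after their values were seen. Probe pairs were found by a shared stretch of 20 bases or overlapping positions. Tools beside R were Python 3.11.15, pandas 2.3.3, numpy 2.4.6 and matplotlib 3.10.9.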

Additional observations from a re-analysis of the deposited data

Results flagged for a closer look

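Of 50 groups of 4 arrays examined for the named factors, 6 held an array far from the other 3, where chance gives about 1 in 20. EEF1A1 stood at 3.71 on senktide 30 replicate 2, against 4.04 on the nearest array. EIF2S3 stood at -1.19 on senktide 30 replicate 3, with -0.76 the nearest. EIF3A stood at -3.92 on senktide 300 replicate 1, with -3.07 the nearest, and this was the array of its group on which the probe was not well above background. EIF3CL stood at 1.08 on senktide 300 replicate 1, with 0.91 the nearest. EIF3K stood at 0.26 and EIF6 at -0.41 on senktide 30 replicate 1, with -0.21 and -0.27 the nearest.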

How the results depend on the processing

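The count of factors past the threshold was 0 in all 3 comparisons under every alternative run but 1. With normexp background correction and quantile normalization, 1 factor, EIF3E, passed in senktide 300 against vehicle (0.64, adjusted p = 0.0391); its adjusted p ranged from 0.0391 to 0.653 over all alternatives. The calls over all probes varied more. They were 1 (senktide 300) and 0 (senktide 30) against vehicle, 107 and 36 with normexp and quantile, and 142 and 107 with quantile alone. They were also 32 and 34 without vehicle replicate 1 and 50 and 36 without vehicle replicate 2, with no factor among them. Counting only probes above background in both groups was chosen after seeing the data, and it left 0 factors past the threshold. The median difference of the factors moved beyond the spread of the array medians (0.11) in these cases. With the 75th percentile taken over all probes, and with the series matrix values, it was 1.14 and 1.14, 1.04 and 1.04, and 0.0703 and 0.0698 in senktide 300 against vehicle, senktide 30 against vehicle and senktide 300 against senktide 30. Scaled to the median of all probes it was 1.39 and 1.30 against vehicle. In senktide 30 against vehicle it was 0.11 with quantile normalization and -0.17 with normexp and the main scaling. Leaving out 1 array at a time gave medians of -0.05 to -0.01, -0.05 to 0.02 and -0.07 to -0.03.

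Lower values reversed under the 75th percentile of all probes, the median of all probes and the series matrix. In senktide 300 against vehicle EIF2B3 came to 0.56, 0.81 and 0.56, EIF3K to 0.66, 0.91 and 0.66, and EIF3A to 0.51, 0.76 and 0.51. In senktide 30 against vehicle EIF2B3 came to 0.48, 0.75 and 0.48, EIF3K to 0.52, 0.79 and 0.52, and EIF5 to 0.64, 0.90 and 0.64. The median of all tested probes shifted by over 1 log2 unit with these scalings. With normexp and the main scaling EIF2B2 (senktide 30 against vehicle) came to -0.0667 and EIF4E (senktide 300 against senktide 30) to -0.00863; the cause was not tested. EIF4A2 kept its sign in every alternative, at 0.56 to 0.98 between doses.

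With the replicate block, 0 factors passed, and the medians were -0.0016, 0.021 and -0.044 in the 3 comparisons; the block changed no call of a factor. The smallest adjusted p of a factor was then 0.335, 0.452 and 0.981. With slide as a block it was 0.238, 0.351 and 0.818. With slides 1 and 2 alone, which leaves fewer arrays, it was 0.609, 0.891 and 0.999. At an unadjusted p of 0.05, 4, 4 and 1 of the 45 tested factors passed in the main fit. The counts were 4, 3 and 1 with slide as a block, and 1, 0 and 1 with slides 1 and 2 alone. The 45 include factors detected on no vehicle array. The share of all probes passing in the same fits was not counted, so these counts are no result about the factors. Detection counts of 38, 37 and 34 genes were the same with any probe in place of the brightest and with outlier spots kept. Factors below background have no level here, and the 2 vehicle arrays limit both comparisons with vehicle.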
